A study of Mus musculus with 6 samples.

Results

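The Zfp900-series genes are the mouse zinc finger genes whose symbols run from Zfp930 to Zfp995 in this annotation. They were taken as every protein-coding gene of the GENCODE M21 annotation with a symbol of Zfp9 and 2 further digits, with or without an a or b. This gave 65 genes of the 55536 Ensembl genes listed. The study compared embryonic stem cells of strain C57BL/6, pluripotent cells of the early embryo, with and without Max. One group was 3 libraries of wild-type cells (WT 1 to 3) and the other was 3 libraries of Max-/- cells (Max-KO 1 to 3). The labels give no age, treatment or further allele for either group, and do not say whether the Max-/- cells were 1 clone or whether a group's libraries came from separate cultures. The spread between libraries may therefore be technical. The family was proposed for description with the values of WT against Max-KO in view, so those values are given as a description, without tests of its members.

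Most of these genes encode KRAB zinc finger proteins. Such a protein binds DNA through an array of C2H2 zinc fingers, often at a transposable element, and its KRAB domain recruits TRIM28 (KAP1). TRIM28 in turn brings SETDB1, the enzyme that places H3K9 trimethylation, and heterochromatin proteins, so that the bound element is silenced. Many genes of this kind arose by repeated local duplication, and some stand in clusters of near-identical copies. MAX is the partner through which MYC proteins bind the E-box CACGTG, and it also belongs to PRC1.6, a complex that represses transcription. RNA levels are given in FPKM, fragments scaled by transcript length and by library depth, which is a level per length.

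Of the 65 members, 62 had a KRAB A-box-like pattern in at least 1 annotated coding transcript, and Zfp956, Zfp957 and Zfp972 did not. In the longest coding transcript 61 had at least 3 zinc fingers of the C2H2 pattern, with a median of 11. Zfp974 had the most, 21. Zfp935, Zfp957 and Zfp972 had 0 and Zfp993 had 2. The members made up 60 of the 272 genes of the annotation with both the KRAB pattern and 3 or more fingers. Their transcripts were poor in G and C, with a median of 39.8% against 50.5% over all genes tested.

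Many members cannot be counted cleanly, because reads of near-identical copies may be split between them. For 31 members, over 25% of the 50-base words of their transcripts also stood in the transcripts of another gene, and for 13 members under 2% did. All words of Zfp935, Zfp967 and Zfp969 were shared, and Zfp968 (95.5%) and Zfp965 (96.3%) were close to it. The median shared fraction was 84.7% among the 11 members on chromosome 2 and 61.2% among the 16 on chromosome 4. It was 12.1% on chromosome 7, 10.4% on chromosome 17 and 2.26% on chromosome 8. Values on chromosomes 2 and 4 are therefore uncertain gene by gene.

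The E-box is the sequence the MAX partners are known for, and the promoters that hold it are shown here with CACGTG in capitals, 5′ to 3′ on the strand of the gene. RefSeq promoter windows of 250 bases before the start (build GRCm38.p6) were matched by symbol for 55 of the 65 members, 62 windows in all.
Zfp943 (chr17:21962483-21962548, plus strand): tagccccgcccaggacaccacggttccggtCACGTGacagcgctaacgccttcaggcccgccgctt
Zfp942 (chr17:21962483-21962548, minus strand): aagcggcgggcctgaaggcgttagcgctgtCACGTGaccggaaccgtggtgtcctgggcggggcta
Zfp944 (chr17:22361401-22361459, minus strand): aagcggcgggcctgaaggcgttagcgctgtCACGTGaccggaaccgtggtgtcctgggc
Zfp946 (chr17:22424162-22424201, plus strand): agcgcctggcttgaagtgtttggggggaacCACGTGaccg
Zfp947 (chr17:22166013-22166078, minus strand): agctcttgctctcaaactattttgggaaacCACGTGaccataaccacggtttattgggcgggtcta
Zfp994 (chr17:22225739-22225804, minus strand): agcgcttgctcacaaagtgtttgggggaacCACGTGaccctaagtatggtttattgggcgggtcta
Zfp933 (chr4:147848493-147848558, minus strand): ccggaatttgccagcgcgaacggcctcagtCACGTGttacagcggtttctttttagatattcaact
The 7 windows were 11.3% of the members' windows, against 6.02% of all 32851 windows of that length and 4.85% of the 206 windows of other KRAB zinc finger genes. The word is its own reverse complement, so both strands were read at once. Of the 10 members matched in the chromosome 17 cluster between 21567008 and 22867134, 6 held it, and of the 45 members matched elsewhere 1 did, Zfp933. Zfp942 and Zfp943 lie head to head and share 1 E-box, so their stretches are reverse complements. The stretch of Zfp944 repeats that of Zfp942, and the whole windows of this pair were identical at 224 of 250 aligned bases. In Max-KO, 5 of the 7 genes were called higher, where 43.0% of all genes tested were (limma, adjusted p under 0.05), and Zfp944 and Zfp946 were not called (log2 differences 0.51 and 0.17). The direction of Zfp947 and Zfp994 among the 5 was given by the filter on low values, and Zfp942 was at 0.02 and not called after a correction for base composition. The E2F6-like word GCGGGA stood in 7 of the 62 windows (11.3%, against 16.9% of all windows) and the T-box word GGTGTGA in 4 (6.45%, against 3.33%), each read on both strands. A match is a run of letters, and binding was not measured.

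The libraries held an estimated 20.4 to 28.0 M fragments, read from the steps between low FPKM values. The step and length offset were chosen on those same values, of which 70.6% to 76.6% then lay within 0.15 of a whole multiple. Over all genes the summed FPKM came to 755900 ± 16350 for WT and 651600 ± 6602 for Max-KO (SD, n = 3). Max RNA measured 41.6, 50.2 and 42.3 FPKM in the WT libraries in order and 35.8, 39.6 and 43.4 FPKM in the Max-KO libraries, so the groups overlapped (log2 difference −0.17 ± 0.10 SE, limma adjusted p = 0.168). A gene-level value does not show a deleted exon and does not check the labels. Of 12 genes of pluripotent cells, all 12 were detected above the filter, 9 were higher and 1 lower (Utf1) in Max-KO, and Pou5f1 stood at 890.8 and 992 FPKM. Germ cell markers summed to 28.0 to 33.9 FPKM in WT and 1036 to 1095 in Max-KO, with 8 of 8 higher. Markers of 2-cell-like cells summed to 0 to 0.12 FPKM in WT and 57.0 to 76.8 in Max-KO, with 9 of 9 higher, and Zscan4c, Zscan4d, Usp17la, Zfp352, Gm4340 and Tcstv1 were listed at 0 in every WT library. Summed ranges in WT and Max-KO were 1.97 to 2.42 and 5.71 to 10.2 FPKM for 7 primitive endoderm markers (4 tested, 4 higher), and 87.7 to 96.7 and 102.7 to 115 for 7 trophoblast markers (4 of 6 tested higher). They were 7.95 to 8.33 and 7.99 to 10.2 for 7 feeder fibroblast markers (1 of 2 tested higher), and 121.5 to 140 and 64.2 to 68.4 for 5 neural markers (3 of 3 tested lower). The 2-cell-like markers all had WT means under 1 FPKM and cleared the filter by their Max-KO values alone, so their direction was given. The same held for the germ cell markers Taf7l, Tex101 and Slc25a31, for Gata4, Sox17 and Pdgfra, and for Gata3 and Elf5. Over all genes tested, 43.0% were called higher and 23.2% lower. The part of these cell types in the members' values was not tested, and in bulk RNA fewer cells of a type and less RNA per cell cannot be told apart.

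WT 3 stood apart from the other WT libraries for these genes. It was the lowest of the WT libraries in 54 of the 61 members tested (88.5%), against 39.1% of all genes tested. Each library was set against the mean of the other 2 of its group, as log2(FPKM + 1). The members' median deviation was −0.67 in WT 3, 0.27 in WT 1 and 0.31 in WT 2. In Max-KO 1 to 3 the same medians were 0.02, 0.10 and −0.11. In 39 members WT 3 lay below 60% of the mean of WT 1 and WT 2. The 7 in which WT 3 was not the lowest were Zfp933, Zfp954, Zfp961, Zfp964, Zfp969, Zfp972 and Zfp990. The median deviation in WT 3 was −0.33 for other KRAB zinc finger genes, −0.07 for zinc finger genes without the KRAB pattern and −0.004 for all genes. Summed over members, the WT libraries held 753, 776 and 477 FPKM in order and the Max-KO libraries 867, 873 and 763 FPKM. Max-KO 3 lay between WT 1 and WT 2, so these sums overlapped. The counts of calls and of overlap over all members follow with and without WT 3. Other counts below include WT 3 unless stated.

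**Figure D1:**
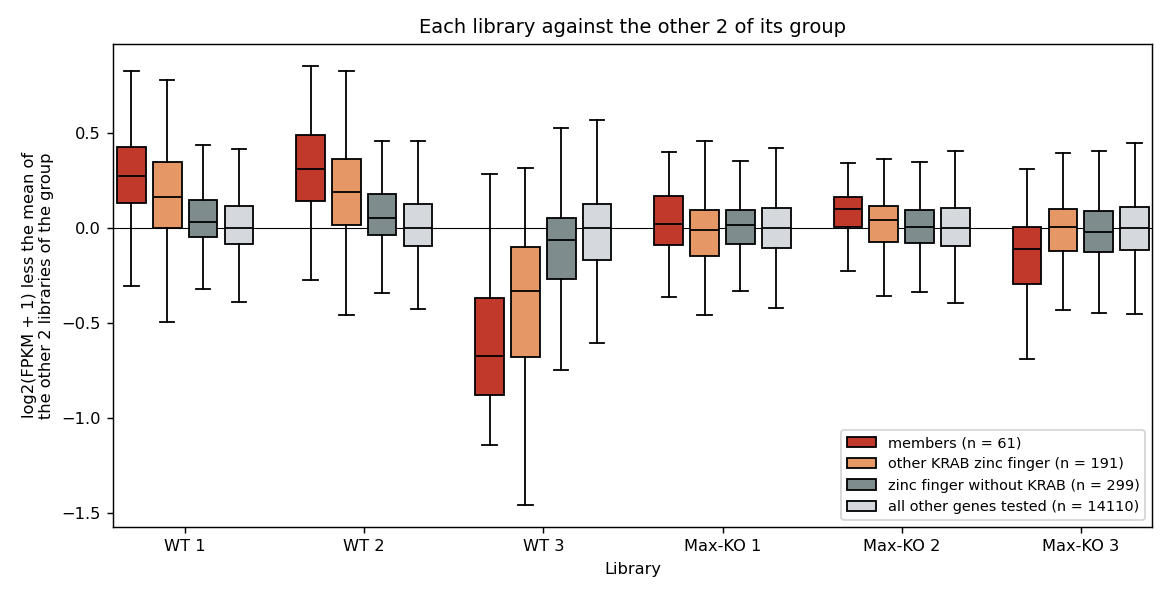
Log2(FPKM + 1) in each of the 6 libraries less the mean of the other 2 libraries of its group, as boxes (quartiles, with the median as a line, points outside the whiskers left out) for members, other KRAB zinc finger genes, zinc finger genes without KRAB and all other genes. The members' median is −0.67 in WT 3 and between −0.11 and 0.31 in the other libraries, while that of all other genes stays near 0 in every library.

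Members were expressed at modest levels, and the range between them was wide. The highest were Zfp978 (WT 107 ± 10.3 FPKM, Max-KO 61.7 ± 2.12, SD, n = 3), Zfp979 (63.8 ± 21.9 and 35.4 ± 1.75) and Zfp980 (50.7 ± 16.7 and 70.8 ± 6.99), all on chromosome 4. The 16 members of chromosome 4 summed to 497, 499 and 309 FPKM in WT 1 to 3, out of the 753, 776 and 477 FPKM of the whole family. Most of the family's summed FPKM was thus on this 1 chromosome in each WT library. The median level over the members of chromosome 4 was 20.2 FPKM, against 8.27 on chromosome 2, 6.26 on chromosome 7 and 4.69 on chromosome 17.

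**Figure D2:**
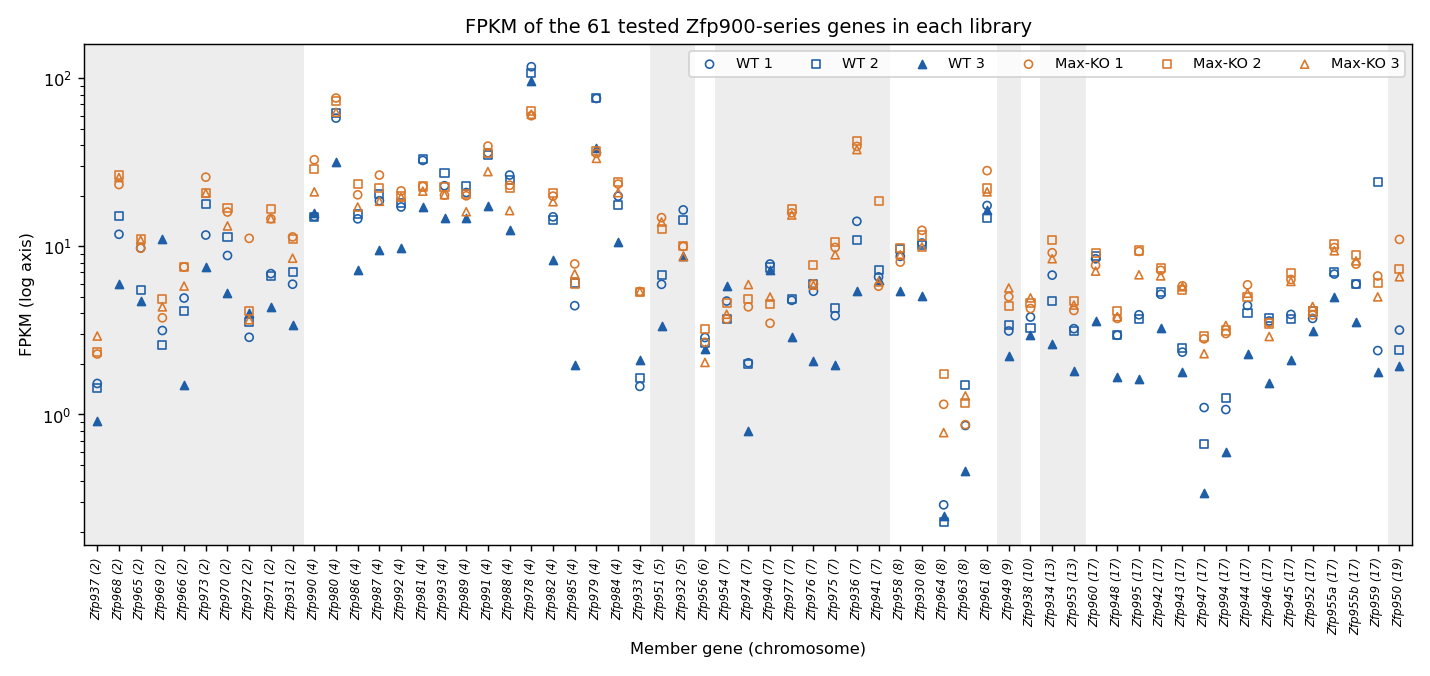
FPKM of the 61 tested members in each of the 6 libraries (1 point per library), on a log axis and ordered by chromosome, which stands in brackets after each name. Members of chromosome 4 reach the highest levels, with Zfp978 between 96.7 and 117 FPKM in WT, and the WT 3 points lie below those of WT 1 and WT 2 for most members.

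More members stood higher in Max-KO than lower. Of the 61 members tested, 32 were called higher in Max-KO, where 43.0% of all genes tested were called higher (limma, adjusted p under 0.05 over 14661 genes). Only 3 were called lower, Zfp978, Zfp979 and Zfp940, where 23.2% of all genes were. The remaining 26 were not called. The family was proposed on this contrast, so nothing is read from these shares. The median log2 difference of the members, Max-KO minus WT, was 0.57, against 0.21 over all genes, and 51 of 61 were above 0. At a log2 difference of at least 1 stood 13 members, and 0 stood at −1 or below, where 14.6% and 5.30% of all genes tested did. The groups did not overlap in 36 members with higher Max-KO values and 3 with lower ones, against 46.3% and 25.7% of all genes tested, and they overlapped in 22.

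Leaving out WT 3 brought the members' median down to 0.39, against 0.19 over all genes. It left 34 members called higher and 5 lower, where 41.6% and 22.6% of all genes were called, and 30 members were higher and 3 lower in both fits. Without WT 3 the groups did not overlap in 38 members with higher and 9 with lower Max-KO values, against 49.0% and 28.3% of all genes tested. Relative to all genes, the members' median lay 0.36 higher with the deposited FPKM, 0.38 with median-ratio scaling, 0.35 after rescaling to TPM, 0.24 after quantile normalization and 0.20 without WT 3. All genes had medians of 0.03, 0.43 and −0.02 under those 3 scalings. The calls differed between scalings: 24 higher and 4 lower with median-ratio scaling (33.2% and 31.8% of all genes), 15 and 6 with quantile normalization (28.8% and 33.0%), and 38 and 2 with TPM (53.3% and 15.2%). After quantile normalization 21 members were higher and 8 lower without overlap, against 32.6% and 36.5% of all genes.

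Base composition moved with these values. All genes split into quintiles by the G and C content of their transcripts had median log2 differences of 0.48, 0.34, 0.20, 0.07 and −0.10 from the lowest quintile to the highest, members left out. The lowest quintile, 30.8% to 45.0% G and C, held 53 of the 61 members tested, with a median of 0.59 and 29 called higher and 2 lower. Among the 2877 other genes of that quintile 57.3% were higher and 10.8% lower. In that quintile the median deviation of WT 3 from the mean of WT 1 and WT 2 was −0.74 on the log2 scale in members and −0.21 in the other genes. After a correction of each library for G and C content and length, added after the data were seen, 13 members were called higher and 10 lower, where 31.2% and 31.7% of all genes were. The members' median was then −0.02 and that of all genes 0.01, and 15 members were higher and 10 lower without overlap, against 34.7% and 35.1% of all genes. The correction took out each library's median deviation among genes of like G and C content and length. It therefore set the median of all genes near 0, and also removed any group difference common to such genes. A corrected value or call, here and below, is relative to genes of like composition and length. All 13 were also higher without the correction, and no member went from higher to lower. The part of base composition in the members' values was not tested.

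**Figure D3:**
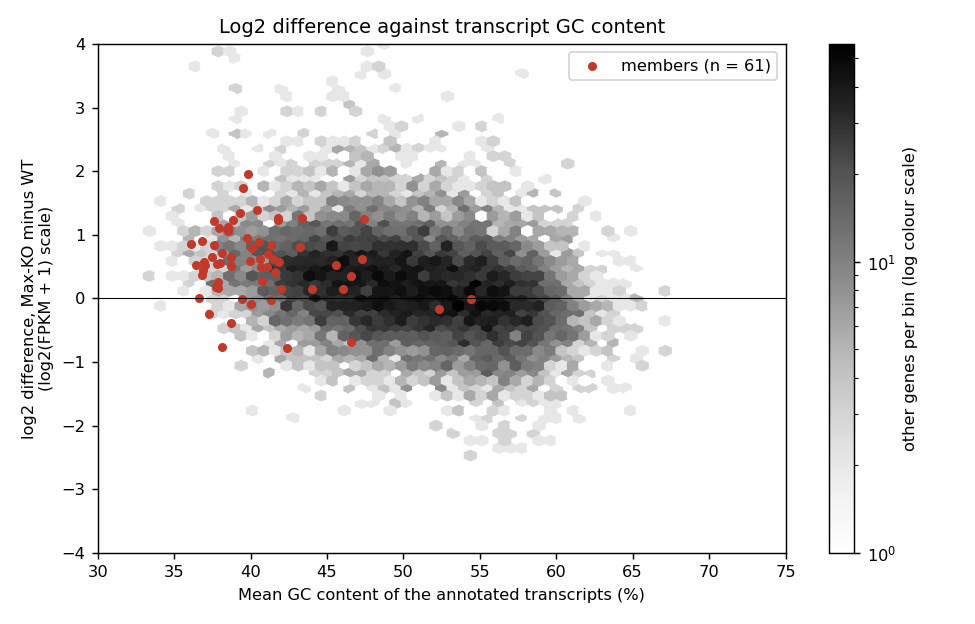
Log2 difference, Max-KO minus WT, against the mean G and C content of a gene's annotated transcripts, for the other genes tested (shaded by number per bin on a log colour scale) and the 61 members (points). The members sit at low G and C content, median 39.8%, where the other genes also lie above 0, and 79 genes beyond the axes are not drawn.

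Chromosome 7 held the largest differences. Zfp936 (ENSMUSG00000064194; chr7:43114229-43192109, plus strand) measured 14.1, 10.9 and 5.46 FPKM in the WT libraries and 39.4, 42.4 and 37.7 FPKM in the Max-KO libraries, here and below in the order 1 to 3. Its groups lay well apart, with a log2 difference of 1.96 ± 0.30 (SE), or 1.60 without WT 3. Zfp977 (ENSMUSG00000092335; chr7:42579783-42592547, minus strand) went from 4.78, 4.89 and 2.90 FPKM to 15.8, 16.7 and 15.4 FPKM, a log2 difference of 1.73 ± 0.16. Zfp975, in the same cluster but with Zfp976 between it and Zfp977, stood at 3.87, 4.32 and 1.96 FPKM in WT and 9.86, 10.6 and 8.92 FPKM in Max-KO (1.34 ± 0.22). In all 3 genes every Max-KO library was above every WT library. The fourth gene of this cluster, Zfp976, did not pass the test: it was listed at 5.41, 5.94 and 2.09 FPKM in WT and 5.99, 7.77 and 5.88 FPKM in Max-KO, with overlap. The promoter windows of Zfp936 and Zfp976 were identical at 219 of 250 aligned bases and those of Zfp936 and Zfp977 at 225. Those of Zfp936 and Zfp975 were identical at 182. The window of Zfp936, chr7:43177340-43177589, lies inside the annotated span of the gene. The part of the promoter in these differences was not tested.

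The other members of chromosome 7 moved in different directions. Zfp974, with the 21 fingers, stood at 2.03, 2.0 and 0.80 FPKM in WT and 4.37, 4.85 and 5.93 FPKM in Max-KO (log2 difference 1.25 ± 0.22). Zfp940 (ENSMUSG00000050855; chr7:29833620-29853669, minus strand) was lower in Max-KO, at 3.49, 4.57 and 5.0 FPKM against 7.86, 7.49 and 7.23 FPKM in WT. Its log2 difference was −0.68 ± 0.13, −0.71 without WT 3 and −1.06 after the composition correction. Of its words 1.58% were shared. Zfp954 (log2 difference −0.16) and Zfp941 (0.35) were not called, and Zfp941 held 1 high value, 18.6 FPKM in Max-KO 2 against 5.80 and 6.15 FPKM in the other Max-KO libraries. In all, 4 of the 8 members on this chromosome were higher and 1 lower, with a median of 0.89, where 36.9% of all genes of chromosome 7 were higher and 28.7% lower. These counts were the same without WT 3 and with the correction.

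On chromosome 2, 8 of 10 tested members were higher and 0 lower, with a median of 0.84, where 46.5% and 19.2% of all genes there were. All but Zfp937 stood in 1 cluster at chr2:175372436-178078476. Zfp971 was listed at 6.89, 6.71 and 4.39 FPKM in WT and 14.6, 16.7 and 14.7 FPKM in Max-KO, a log2 difference of 1.24 ± 0.16. Zfp968 was listed at 11.8, 15.2 and 5.97 FPKM in WT and 23.4, 26.7 and 25.7 FPKM in Max-KO (1.21 ± 0.30), with 95.5% of its words shared. The groups were apart in both genes. Zfp969, whose words all stand in Zfp968, was at 3.16, 2.60 and 11.1 FPKM in WT and 3.76, 4.84 and 4.37 FPKM in Max-KO. Here WT 3 was the highest library of all 6, and the log2 difference went from −0.09 to 0.45 without it, where it was called higher. Zfp972 was not called (0.57 ± 0.37), with 11.2 FPKM in Max-KO 1 against 4.15 and 3.66 FPKM in the other Max-KO libraries. After the composition correction 2 members of chromosome 2 stayed called higher, namely Zfp968 and Zfp971. Leaving out any 1 Max-KO library also lowered the count, to 3 at the lowest.

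Copies with the same promoter letters could still differ in level. The windows of Zfp966 and Zfp967 were identical at 250 of 250 bases. Zfp966 was nevertheless listed at 3.52 ± 1.80 FPKM in WT (SD, n = 3) and Zfp967 at 0.210 ± 0.139 FPKM. All words of Zfp967 are shared, and the split of reads between copies was not tested. Zfp955a and Zfp955b on chromosome 17 also had identical windows, and their log2 differences were 0.59 and 0.62, or −0.06 and −0.02 after the composition correction. Zfp968 and Zfp973 were identical at 249 bases, with log2 differences of 1.21 and 0.88.

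Chromosome 17 carried 15 members, and 9 of the 14 tested were higher and 0 lower, with a median of 0.57, where 37.0% and 26.6% of all genes there were. Without WT 3 the counts were the same and the median was 0.39. After the composition correction 4 were higher and 1 lower, with a median of −0.03. The cluster at chr17:21567008-22867134 held 10 of them, with 7 of 9 tested higher. Zfp995 (ENSMUSG00000078546; chr17:21879570-21909926, minus strand) was listed at 3.92, 3.70 and 1.63 FPKM in WT and 9.34, 9.46 and 6.78 FPKM in Max-KO, a log2 difference of 1.26 ± 0.26. Among the genes with an E-box shown above, Zfp943 went from 2.35, 2.49 and 1.79 FPKM to 5.83, 5.49 and 5.75 FPKM (1.07 ± 0.12). Its head-to-head neighbour Zfp942 differed by less, from 5.19, 5.36 and 3.29 FPKM to 7.21, 7.41 and 6.68 FPKM (0.55 ± 0.16). Zfp947 (1.13 ± 0.18) and Zfp994 (1.10 ± 0.15) had WT means of 0.703 and 0.97 FPKM and cleared the filter by their Max-KO values alone, so that their direction was given. Zfp946 was listed at 3.60, 3.75 and 1.55 FPKM in WT and 3.52, 3.48 and 2.91 FPKM in Max-KO, so its groups overlapped. The E-box genes therefore ranged from 0.17 to 1.23 in log2 difference, the last being Zfp933 of chromosome 4. Zfp959 had 1 value far from the rest, 24.2 FPKM in WT 2 against 2.40 and 1.79 FPKM in WT 1 and WT 3, and was not called (0.15 ± 0.89).

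Chromosome 4 differed from the others in its counts. All 16 members stood at chr4:145510759-147848366, and 3 were higher, 2 lower and 11 not called, with a median of 0.48, where 38.8% and 26.7% of all genes there were higher and lower. Summed over the cluster, Max-KO 1 to 3 held 456, 449 and 388 FPKM, so Max-KO 1 to 3 all lay below WT 1 and WT 2 (497 and 499 FPKM) and above WT 3 (309 FPKM). Without WT 3 the counts were 6 higher and 3 lower with a median of 0.18, and after the composition correction they were 1 higher and 6 lower.

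The members that were lower here had the highest WT means of the family. Zfp978 (ENSMUSG00000078497; chr4:147361303-147391004, plus strand) was listed at 117, 107 and 96.7 FPKM in WT and 59.9, 64.1 and 61.2 FPKM in Max-KO, without overlap. Its log2 difference was −0.78 ± 0.08, and −0.85 without WT 3. Zfp979 (ENSMUSG00000066000; chr4:147611937-147642513, minus strand) was at 75.9, 76.8 and 38.5 FPKM in WT and 35.8, 36.8 and 33.4 FPKM in Max-KO, so WT 3 lay close to the Max-KO libraries. Its log2 difference was −0.77 ± 0.27, and −1.09 without WT 3. It was no longer called when any other single library was left out, with log2 differences from −0.80 to −0.60, nor after rescaling to TPM (−0.56) or without the filter. Zfp978 and Zfp979 share 77.4% and 27.1% of their words with other genes, and for both the closest gene is Zfp600.

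The promoter of Zfp979 is shown beside that of Zfp980, its closest relative in the table, because the deposited values of the pair differed in direction. Capitals mark the bases without an identical partner in the alignment, 23 in each, which left 227 of 250 identical.
Zfp979 (chr4:147642509-147642758, minus strand): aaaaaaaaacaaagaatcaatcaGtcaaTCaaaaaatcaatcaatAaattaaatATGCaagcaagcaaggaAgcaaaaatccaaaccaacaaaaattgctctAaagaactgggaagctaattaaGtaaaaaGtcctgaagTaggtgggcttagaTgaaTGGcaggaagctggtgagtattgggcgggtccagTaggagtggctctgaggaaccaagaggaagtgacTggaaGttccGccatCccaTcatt
Zfp980 (chr4:145670447-145670696, plus strand): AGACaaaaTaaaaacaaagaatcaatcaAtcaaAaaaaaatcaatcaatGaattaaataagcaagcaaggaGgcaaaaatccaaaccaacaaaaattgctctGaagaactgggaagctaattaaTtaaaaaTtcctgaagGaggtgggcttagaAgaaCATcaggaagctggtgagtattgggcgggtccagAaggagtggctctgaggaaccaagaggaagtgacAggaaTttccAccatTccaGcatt
Zfp980 (ENSMUSG00000058186; chr4:145670685-145704441, plus strand) was listed at 58.0, 62.6 and 31.6 FPKM in WT and 76.4, 73.0 and 63.0 FPKM in Max-KO. All Max-KO libraries were above all WT libraries, but the gene was not called (log2 difference 0.53 ± 0.26), and without WT 3 the difference was 0.22. With the deposited FPKM the pair lay on opposite sides of 0 with 90.8% of the window in common. Zfp980 shares 71.3% of its words with other genes, most with Rex2, against 27.1% for Zfp979, so its value is the less certain. After the composition correction both were below 0, at −1.31 for Zfp979 and −0.12 for Zfp980. The difference between the 2 genes was not tested.

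The remaining members of chromosome 4 spread on both sides of 0. Zfp933 was listed at 1.47, 1.64 and 2.1 FPKM in WT and 5.39, 5.34 and 5.39 FPKM in Max-KO, a log2 difference of 1.23 ± 0.12. It is 1 of the few members in which WT 3 was not low, and it shares 1.83% of its words. Zfp990 was higher too, from 15.1, 15.0 and 15.9 FPKM to 32.8, 28.8 and 21.1 FPKM (0.79 ± 0.15), again with WT 3 close to its group, and was not called after the composition correction (0.24). Zfp982, described as a factor that supports the stem cell state in mouse embryonic stem cells, was at 15.0, 14.3 and 8.29 FPKM in WT and 19.9, 20.8 and 18.5 FPKM in Max-KO (0.66 ± 0.20). Its groups did not overlap, and it was 0.41 and called without WT 3. It was not called after median-ratio scaling (0.47), quantile normalization (0.42) or the composition correction (0.09), without the filter, or when any 1 Max-KO library was left out. Zfp981 stood at 32.5, 33.2 and 17.1 FPKM in WT and 22.7, 22.7 and 21.3 FPKM in Max-KO, where WT 3 was the lowest library of the 6. It was not called with all libraries (−0.24 ± 0.25) and was called lower without WT 3 (−0.54) and after the composition correction (−0.77). Zfp989 (−0.03 ± 0.17), Zfp991 (0.27 ± 0.30) and Zfp992 (0.45 ± 0.21) were not called with all libraries, and their WT means were 19.5, 29.5 and 15.0 FPKM. After the correction Zfp989 was called lower (−0.60), which is relative to genes of like composition and length.

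**Figure D4:**
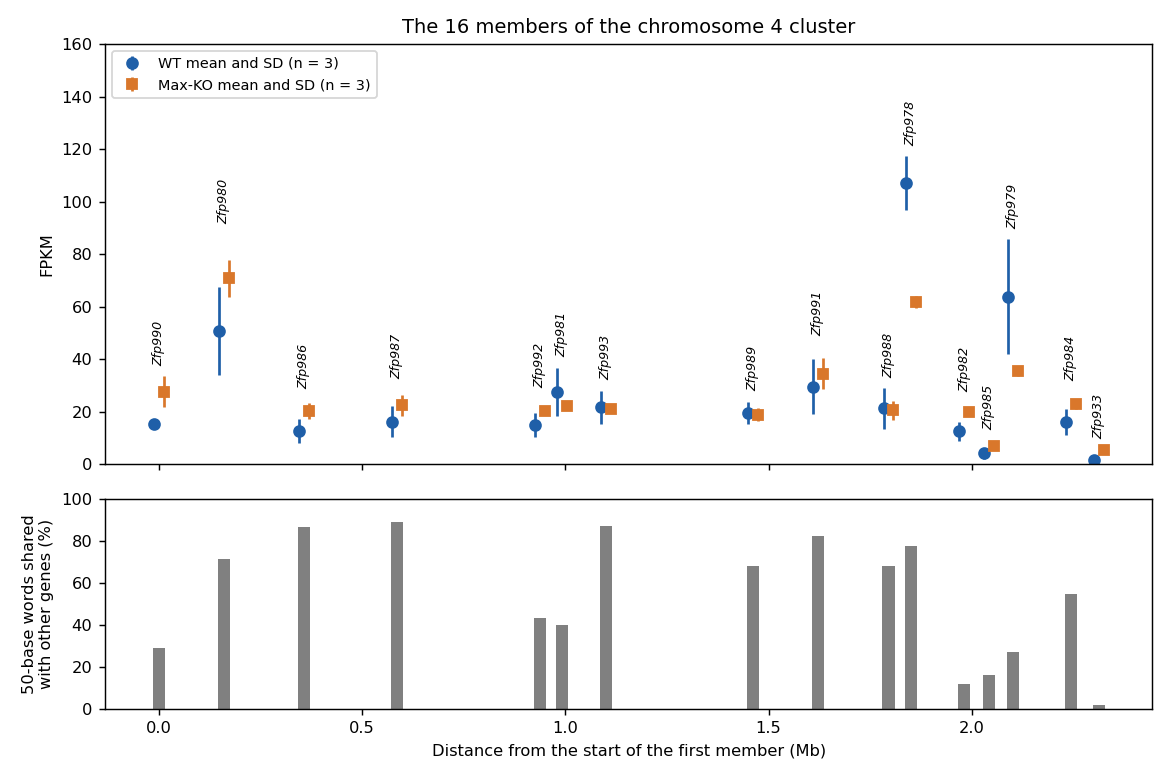
Mean FPKM with SD (n = 3) of the 16 members of the chromosome 4 cluster in WT and Max-KO (top) and the percent of their 50-base words shared with other genes (bottom), by distance from the first member's start in Mb. Zfp978 and Zfp979 are lower in Max-KO, Zfp933 and Zfp990 are higher, and the shared percent runs from 1.83% (Zfp933) to 89.0% (Zfp987).

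The smaller groups varied as well. On chromosome 8, 2 of 5 members were higher, 0 lower, with 35.4% and 28.6% of all genes there. Zfp961 was listed at 17.5, 14.7 and 16.4 FPKM in WT and 28.3, 22.1 and 21.1 FPKM in Max-KO, without overlap (0.52 ± 0.12, or 0.23 and not called after the composition correction). Zfp964, at 0.29, 0.23 and 0.25 FPKM in WT and 1.15, 1.74 and 0.78 FPKM in Max-KO, likewise cleared the filter by its Max-KO values alone. After the correction 0 of the 5 were higher and 1 lower. Zfp950, the 1 member on chromosome 19, was listed at 3.18, 2.41 and 1.94 FPKM in WT and 11.01, 7.31 and 6.60 FPKM in Max-KO (1.39 ± 0.21). Zfp951 on chromosome 5 went from 5.95, 6.78 and 3.38 FPKM to 14.8, 12.7 and 14.0 FPKM (1.26 ± 0.21). The groups of both genes were apart. Zfp932, which is known to bind endogenous retroviruses in mouse embryonic stem cells, was at 16.5, 14.4 and 8.82 FPKM in WT and 9.98, 10.02 and 8.69 FPKM in Max-KO. It was not called (−0.39 ± 0.21), with WT 3 inside the Max-KO range, and was called lower without WT 3 (−0.64) and after median-ratio scaling (−0.57), quantile normalization (−0.68) or the composition correction (−0.96).

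**Figure D5:**
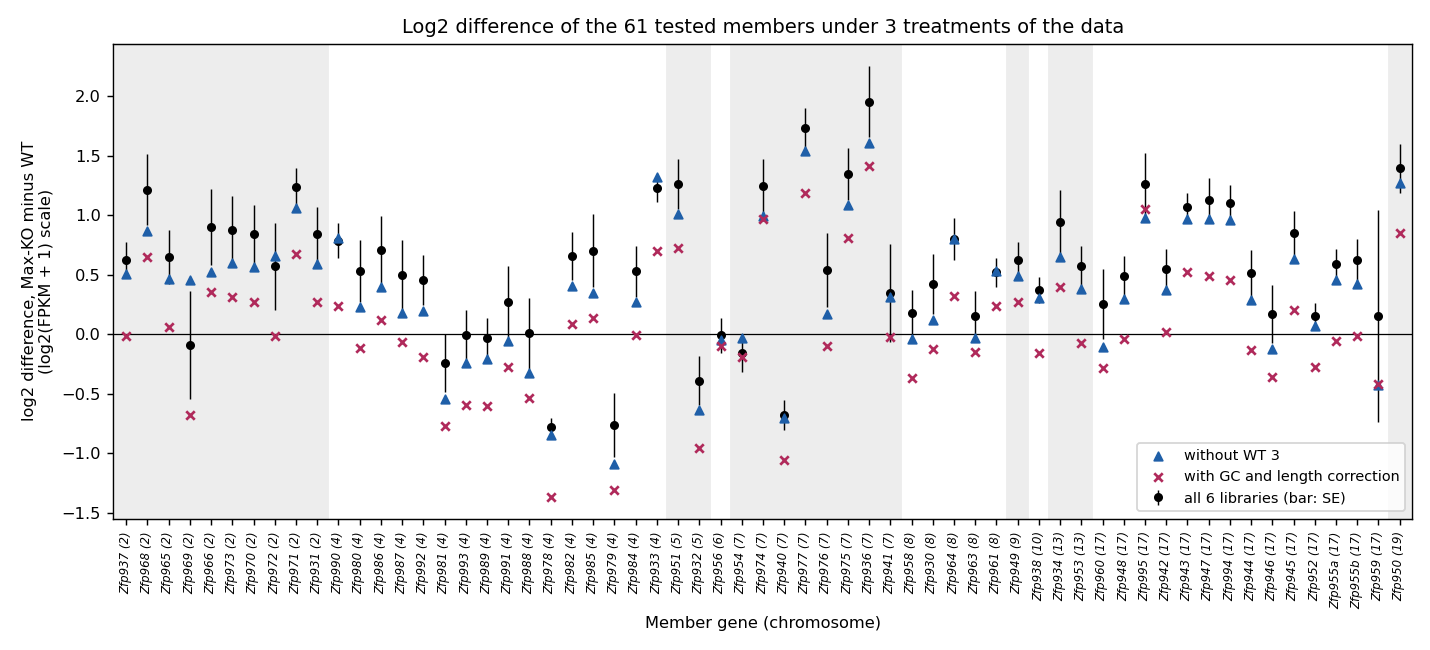
Log2 difference, Max-KO minus WT, of the 61 members tested by chromosome: dots with the standard error for all 6 libraries, triangles without WT 3 and crosses with the composition correction. Dots run from −0.78 (Zfp978) to 1.96 (Zfp936), and the median goes from 0.57 to 0.39 without WT 3 and to −0.02 with the correction.

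Only 4 members were left out by the filter of a mean of 1 FPKM in at least 1 group. Zfp957 and Zfp935 were listed at 0 in every WT library, with Max-KO means of 0.0233 and 0.0433 FPKM. Just outside the filter were Zfp983 (0.437 FPKM in WT and 0.650 in Max-KO) and Zfp967 (0.210 and 0.503). Just inside were Zfp963 (0.94 and 1.11), Zfp964 (0.257 and 1.22) and Zfp937 (1.29 and 2.53). Of those tested, 4 had a WT mean under 1 FPKM, Zfp947, Zfp963, Zfp964 and Zfp994, so their direction was set by the filter. Among members with a WT mean of at least 1 FPKM, 13 were called in 1 direction in all 17 fits compared, the deposited values and each alternative. Zfp933, Zfp936, Zfp943, Zfp950, Zfp951, Zfp968, Zfp971, Zfp974, Zfp975, Zfp977 and Zfp995 were higher in each, and Zfp940 and Zfp978 were lower. Of these, Zfp968 shares 95.5% of its words with other genes and Zfp978 77.4%. The share of all genes called in every fit was not taken, so nothing is read from the count of 13.

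Counts of other zinc finger genes are given here, where 43.0% of all genes tested were higher and 23.2% lower. Of 191 other KRAB zinc finger genes tested 122 were higher and 8 lower, with a median log2 difference of 0.61. Of 299 zinc finger genes without the KRAB pattern 153 were higher and 35 lower, with a median of 0.38. Of 288 other Zfp-numbered genes 154 were higher and 28 lower, with a median of 0.41. This last class is drawn by symbol and overlaps the classes with and without the KRAB pattern. In that order the shares were 63.9%, 51.2% and 53.5% higher and 4.19%, 11.7% and 9.72% lower. The members had 32 and 3 of 61 (52.5% and 4.92%) and a median of 0.57. Without WT 3 the calls were 113 and 12, 150 and 35, and 146 and 34 in the same order. They were 34 and 5 for the members, where 41.6% and 22.6% of all genes were called. No difference between the classes was tested. Spread within WT was wider for the members: the median SD of log2 values within WT was 0.43 for members, 0.26 for other KRAB zinc finger genes and 0.12 for all genes, against 0.13, 0.11 and 0.11 within Max-KO. Members sharing at most 25% of their words numbered 20 higher and 1 lower of 32 tested (median 0.60), and those sharing more 12 and 2 of 29 (median 0.53). Without WT 3 the calls were 19 and 1 for the former and 15 and 4 for the latter.

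Genes lying between the members of a cluster were higher in 69 and lower in 21 of 148 tested over all clusters (46.6% and 14.2%), against 43.0% and 23.2% of all genes. In the chromosome 2 cluster 22 of 36 tested neighbours were higher and 0 lower, with a median of 0.76, against 0.84 for the 9 members tested there. In the chromosome 4 cluster 18 of 38 were higher and 0 lower with a median of 0.87, against 3 and 2 of 16 and 0.48 for the members. These neighbours were genes of any type, and only 5 of the 38 had the KRAB pattern or at least 3 zinc fingers. Of those 5, 1 was higher and 0 lower, with a median of 0.44. In the chromosome 17 cluster 7 of 9 were higher and 0 lower with a median of 1.02, against 0.85 for the members. Between Zfp974 and Zfp940 on chromosome 7, 14 of 53 were higher and 21 lower, with a median of −0.09, and between Zfp977 and Zfp936 0 of 3 were called.

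The genes of proteins through which KRAB zinc fingers act gave a mixed picture. Trim28 averaged 991 ± 71.3 FPKM in WT libraries and 925.5 ± 46.6 FPKM in Max-KO libraries (SD, n = 3), a log2 difference of −0.10 ± 0.07 that did not pass (limma adjusted p = 0.257). Setdb1 stood at 39.2 ± 0.650 and 39.4 ± 2.03 FPKM (log2 difference 0.01 ± 0.06, limma adjusted p = 0.920). Of the 22 co-repressors and heterochromatin partners tested, 10 were higher, 3 lower and 9 not called, with a median of 0.24, where 43.0% of all genes were higher and 23.2% lower. Fam208a, the HUSH subunit TASOR, rose to 40.7 ± 2.06 FPKM, from 21.1 ± 5.22 in WT (0.94 ± 0.17, limma adjusted p = 0.00282). Its WT 3 value of 15.1 FPKM lay below 24.5 and 23.8 in WT 1 and WT 2. Mphosph8, the HUSH chromodomain protein, rose to 67.6 ± 3.63 FPKM, from 39.2 ± 13.5 in WT (0.83 ± 0.27, limma adjusted p = 0.0332), and its WT 3 value of 23.6 FPKM lay below 47.4 and 46.7 in WT 1 and WT 2. Hdac2, a histone deacetylase, rose to 130.9 ± 7.17 FPKM, from 84.4 ± 5.2 in WT (0.63 ± 0.07, limma adjusted p = 0.000197). Atrx, a chromatin remodeller, had a log2 difference of 0.69 ± 0.29 and was not called (limma adjusted p = 0.0819). Its WT values were 112.5, 129.9 and 59.1 FPKM in order, with WT 3 far the lowest, and its Max-KO values 158.4, 154.7 and 150.5 FPKM. Cbx1, a heterochromatin protein, fell to 221 ± 8.64 FPKM, from 288 ± 17.1 in WT (−0.38 ± 0.06, limma adjusted p = 0.00146), and Cbx3 and Uhrf1 fell too.

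Of 13 KRAB zinc finger genes of known function with other numbers or names, 8 were higher and 0 lower, with a median of 0.60. Of all genes tested 43.0% were higher and 23.2% lower, and of other KRAB zinc finger genes 63.9% and 4.19%, so nothing is read from this count. Zfp57, which protects imprints, rose to 382 ± 17.7 FPKM, from 209 ± 24.8 in WT (log2 difference 0.87 ± 0.09, limma adjusted p = 0.000187). Zfp617 rose to 19.8 ± 2.26 FPKM, from 6.88 ± 0.980 in WT (1.40 ± 0.12, limma adjusted p = 7.5e-05). Rsl1, a regulator of sex-biased liver genes, rose to 7.64 ± 1.13 FPKM, from 2.76 ± 0.437 in WT (1.20 ± 0.14, limma adjusted p = 0.000281). Zfp445, another guardian of imprints, rose to 29.5 ± 1.34 FPKM, from 17.5 ± 3.57 in WT (0.74 ± 0.14, limma adjusted p = 0.00304). In Zfp57, Zfp617, Rsl1 and Zfp445 WT 3 was the lowest WT library, in Zfp445 at 13.4 FPKM against 20.2 and 18.9 in WT 1 and WT 2.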

How the data were processed

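RNA of 3 WT and 3 Max-KO libraries was measured. Per the labels' protocols, RNA was extracted with Trizol and libraries were made with an Illumina TruSeq RNA kit; no source used here says whether strand was kept. The deposited files hold 1 FPKM value per gene and library with 2 decimals and no header. Per the submitters' processing notes, FastQC, HISAT2 2.1.0, RSEM and DESeq 1.26.0 were named, with build GRCm38.p6, without their roles. The files hold FPKM and not counts, so the count test planned first was replaced by the one planned for a normalized unit. The 14661 genes that reached a mean of 1 FPKM in either group entered a limma 3.58.1 fit of log2(FPKM + 1) (R 4.3.3, trend and robust moderation, 2-sided, genotype only), and Benjamini-Hochberg adjustment ran over all of them. Calls are at an adjusted p under 0.05. A log2 difference on this scale understates the change of low genes. Protein patterns (C-X2-4-C-X12-H-X3-5-H and a KRAB A-box-like pattern) were read in translated GENCODE M21 coding sequences, shared 50-base words in its transcripts, and promoter windows in RefSeq's table for GRCm38.p6, with global alignment within a chromosome. Python 3.11.15, pandas 2.3.3, numpy 2.4.6 and Biopython 1.88 were used.

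The members and lists were chosen with earlier results of these data known. Members described in full were those with the 6 largest and 6 smallest log2 differences, the 6 highest levels, the highest, largest and smallest per chromosome with at least 3 tested members, the 3 on either side of the filter, and Zfp932, Zfp961, Zfp982, Zfp989 and Zfp992. From the co-repressor list and that of KRAB zinc finger genes of known function, the 4 genes with the largest absolute difference were named. To these came 1 of the opposite direction where there was any. Genes named from the pluripotent and marker lists did not follow this rule. The E-box genes, Trim28, Setdb1 and the members with a single far value were chosen after their values were seen. Zfp974, Zfp976, Zfp990, Cbx3, Uhrf1 and the promoter pairs were also named outside these rules. On simulated data of 14661 genes, 94.0% of 50 genes lowered and 100.0% of 50 raised by a log2 difference of 2 were recovered, 80.0% and 84.0% at 1, and 13 unchanged genes were called. The noise was drawn for each gene alone, and the changed genes were taken from those above a low WT level. No library was shifted as WT 3 was, so these rates do not describe the members.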

Additional observations from a re-analysis of the deposited data

How the results depend on the processing

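The members' counts depended on scaling, base composition and single libraries. Against 32 higher and 3 lower with a median of 0.57, quantile normalization gave 15, 6 and 0.23, with 21 and 8 members without overlap in place of 36 and 3 (32.6% and 36.5% of all genes in place of 46.3% and 25.7%), and with 2 higher on chromosome 2, 0 on chromosome 8 and 5 on chromosome 17. Correction for G and C content and length, chosen after seeing the data, gave 13 higher, 10 lower and a median of −0.02, with 15 and 10 without overlap (34.7% and 35.1% of all genes), and with 2 higher on chromosome 2, 1 on chromosome 4, 0 on chromosome 8 and 4 on chromosome 17. Members sharing at most 25% of words, also chosen after seeing the data, gave 20 higher and 1 lower, with 21 and 1 without overlap and 1 higher on chromosome 2, with fewer genes by construction. Median-ratio scaling gave 5 higher on chromosome 2, the filter on the mean over all 6 libraries 1 on chromosome 8, TPM 7 on chromosome 4 and protein-coding genes alone 5 there. With each library left out in turn, 19 (without Max-KO 2) to 34 (without WT 3) members were higher and 2 to 5 lower, with a median of 0.39 to 0.67, 36 to 41 and 3 to 9 without overlap, and 3 to 8 higher on chromosome 2, 2 to 6 on chromosome 4, 4 on chromosome 7, 1 to 2 on chromosome 8 and 6 to 10 on chromosome 17. A fit with the replicate block gave 35 higher and 3 lower, with 7 on chromosome 4 in place of 3. Of these fits, only that without WT 3 has shares of all genes beside it (41.6% higher and 22.6% lower). Nothing is therefore read from the members' counts in the others. Deviations of same-numbered libraries correlated at −0.000616, 0.016 and 0.0855, and not every library correlated best with its own number. The largest correlation was that of WT 3 with Max-KO 3. Whether same-numbered libraries shared a batch is not given by the labels and was not tested. Among the members described singly, direction turned in 19 values, with 391 kept in direction and side of the threshold, 20 calls lost and 12 gained. With TPM Zfp954 was 0.01, Zfp969 0.10 and Zfp989 0.17; Zfp952 was −0.01 with median-ratio scaling and −0.26 with quantile normalization, which put Zfp963 at −0.45. The correction put Zfp937 at −0.02, Zfp952 at −0.27, Zfp955a at −0.06, Zfp963 at −0.15, Zfp980 at −0.12, Zfp991 at −0.28 and Zfp992 at −0.19. With libraries left out, Zfp969 ran from −0.42 to 0.45, Zfp963 from −0.04 to 0.35, Zfp989 from −0.21 to 0.09 and Zfp991 from −0.06 to 0.45. The cause was not tested. An FPKM of 1 in a transcript of 2 kb stood for an estimated 40.8 to 56.0 fragments, which limits the members near 1 FPKM.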
